A study of Drosophila melanogaster with 4 samples.

Results

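Narrow TCF peaks lying in long chains on the large autosomes of Drosophila melanogaster are described here. From the deposited peak list, the peaks of the arms 2L, 2R, 3L and 3R were taken, and consecutive peaks with at most 5000 bp between them were joined into groups. A group of at least 5 peaks is called a chain, and a peak under 1500 bp is called narrow. The peaks were thus chosen by position and width. This gave 959 narrow chain peaks, which are 24.4% of the 3930 peaks on these arms and 20.9% of the 4589 peaks in the list. They lie in 147 chains together with 147 wide peaks of 1500 bp and over. These come from the same peak calls that carry the scores, so all values of these peaks are given as descriptions, with no test.

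The list comes from a ChIP-seq experiment, which sequences the DNA that an antibody recovers from cross-linked chromatin. There were 2 TCF ChIP libraries, made with a crude rabbit polyclonal antibody raised on an N-terminal part of TCF, which the gene pangolin encodes, and 2 input libraries of chromatin DNA. All 4 came from whole embryos labelled 0 to 8 h of the strain Y cn bw sp, of unknown sex. The collection protocol names a later egg-laying window, which conflicts with this label, and the label is used here. Besides y[1], cn[1], bw[1] and sp[1], the labels list the alleles oc[R3.2], Gr22b[1] and Gr22d[1], CG33964[R4.2], LysC[1] with lab[R4.2], MstProx[1], and GstD5[1] with Rh6[1], shared by ChIP and input. Whole embryos mix many cell types, so a weak peak cannot be told apart from a strong one in few cells.

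Flies have a single TCF/LEF protein, through which the Wingless (Wnt) pathway reaches its target genes. Without the signal it represses target genes with the corepressor Groucho, and with the signal it recruits Armadillo, the fly beta-catenin, and activates them. Its HMG domain binds short sites, and a second domain, the C-clamp, reads a nearby Helper site. Many developmental genes of the fly have several enhancers spread over long non-coding stretches.

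The authors' caller gave every peak 1 score, deposited without a named scale. At an expected pileup of 71.7, 4345 of the 4589 scores (94.7%) equalled, within 0.01, the -log10 probability that a Poisson count reaches some whole-number pileup. The best other expectation between 1 and 400, picked on the lower scores and not refined as the first was, matched 37.7% of all scores. For matching peaks this gives an implied pileup, known to within 1, and an implied fold over that single expectation, with an exact Poisson 95% interval that covers counting error only. The pileup is the height that the caller scored and is therefore high by selection. The depth of the libraries is unknown and no value has a replicate error. Genes are not assigned, because the only gene table used here is built on release 6, and the list on FlyBase release 5. All coordinates are on release 5.

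Most narrow chain peaks were weak and short. The median score was 13.08 (interquartile range 9.92 to 21.15), and the scores lay between 6.02 and 624.23. Their width had a median of 446 bp, and the shortest were 201 bp, which is also the least width in the whole list. Of the 959 peaks, 28.8% were under 300 bp, and 23.4% were between 800 and 1500 bp. A fold could be given for 906 of them, with a median of 1.99 (interquartile range 1.84 to 2.32). In these, the implied fold was under 2 in 51.4%, where 39.7% of the matching peaks on the 4 arms lay under 2. It reached at least 3 in 86 peaks (9.49%), where the share over the 4 arms was 19.7%.

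Set beside other peaks of the same arms, the narrow chain peaks stood at the low end of the scores. Their median score of 13.08 compares with 14.63 for the 1539 narrow peaks in groups of 2 to 4, and with 16.60 for the 1096 single narrow peaks. Among peaks with a fold, at least 3 was reached by 9.49% of the narrow chain peaks (86 of 906), by 13.5% of those in groups of 2 to 4 (195 of 1444) and by 18.4% of the single ones (190 of 1031). The wide peaks of the same chains had a median score of 93.20 and a median fold of 4.28. Only 4 narrow chain peaks were among the 100 highest scores of the list, against 14 narrow peaks in groups of 2 to 4 and 9 single narrow peaks. Of all the peaks on the 4 arms, 2.29% were among those 100. The wide peaks of the chains supplied 32.

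Score and width rise together in this list, so the scores were also set side by side at like width. In classes that each exclude their upper bound, under 300 bp the median score was 9.65 in chains and 10.46 for single peaks. Between 300 and 500 bp it was 11.88 in chains and 14.00 for single peaks. The gap was wider between 500 and 800 bp, with 16.60 in chains (interquartile range 13.04 to 22.31) and 25.41 for single peaks (16.60 to 39.29). Between 800 and 1500 bp it was 32.94 in chains (20.73 to 55.83) and 44.58 for single peaks (25.81 to 80.84). The interquartile ranges overlapped in all 4 width classes. In each class the narrow peaks in groups of 2 to 4 had a median between those of the chains and the single peaks.

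**Figure D1:**
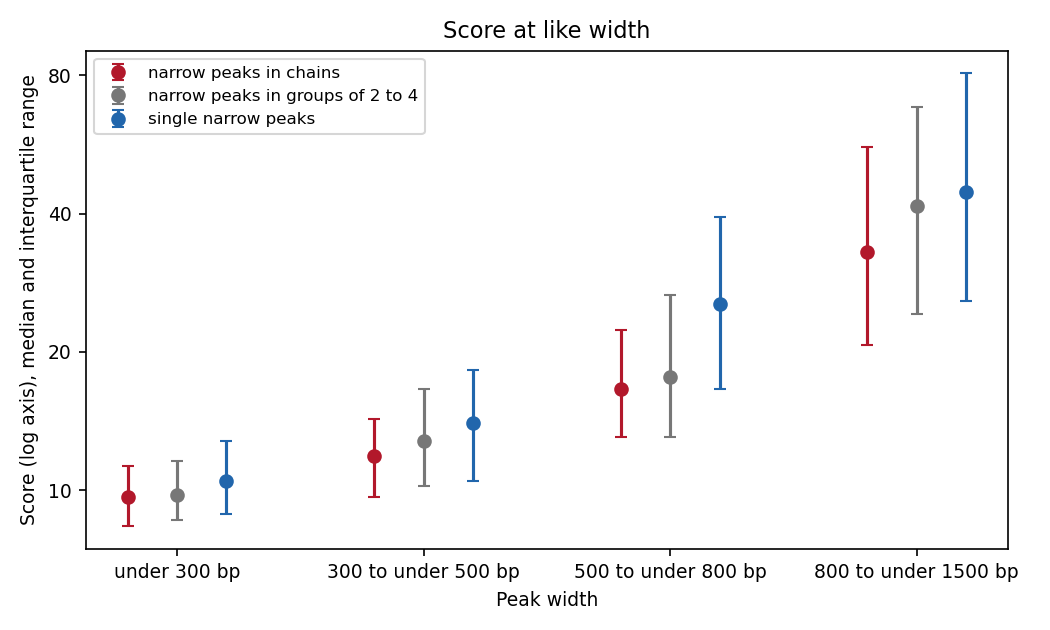
Score (log axis) against peak width for narrow peaks in chains, narrow peaks in groups of 2 to 4 and single narrow peaks on the 4 arms. Points are medians and bars are interquartile ranges over peaks. In each of the 4 width classes the chain peaks have the lowest median, with overlapping ranges.

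The same order was seen on most arms. Over 4 arms and 4 width classes, the median score of narrow chain peaks was below that of single narrow peaks in 15 of 16 cells. The exception was 3R between 800 and 1500 bp, with 35.85 in chains and 34.05 for single peaks. The greatest difference was on 2L in that class, with 28.46 in chains and 51.12 for single peaks. The lower medians of chain peaks were also seen in both kinds of chain. Between 500 and 800 bp the median was 16.26 in chains with a wide peak and 19.73 in chains without one, against 25.41 for single peaks. Scores that departed from the fitted expectation made up 5.53% of the narrow chain peaks and 5.93% of the single ones, against 5.83% of the peaks on the 4 arms.

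The 4 arms held similar shares of narrow chain peaks. They made up 27.3% of the peaks on 3R (292 of 1071), 24.2% on 2R (218 of 902), 23.5% on 3L (233 of 990) and 22.3% on 2L (216 of 967). Their median score was 12.77 on 3R, 13.08 on 2R, 14.32 on 3L and 12.33 on 2L. The number of chains was 43 on 3R, 37 on 2R, 35 on 3L and 32 on 2L. The arms held between 1.41 (2L) and 1.75 (2R) chains per Mb, and the median distance to the nearest other chain on the arm was 195 kb. Another chain lay within 10 kb for 14 of the 147.

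A typical chain was short. Its length had a median of 12.0 kb (interquartile range 8.92 to 15.3 kb), and the range was 2.85 to 97.4 kb. Of the 147 chains, 54 held exactly 5 peaks, and 21 held 10 or more. The peaks covered a median of 42.7% of the chain. Narrow peaks covered 538 kb in all and wide chain peaks 389 kb, so narrow peaks supplied 58.0% of the covered bases. The 10 chains with the most narrow peaks held 171 of the 959, where chains with equal numbers were ranked by their best score. A chain on 3R at 12048536 to 12068181 tied with the last of these at 12 narrow peaks and was left out by its lower best score.

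The chains differed in whether they held a wide peak. A wide peak was present in 88 chains, and 59 consisted of narrow peaks only. The best score of a chain had a median of 135 in chains with a wide peak (range 28.67 to 730.46) and of 43.11 in chains of narrow peaks only (13.08 to 624.23). The split itself favours this order, since wide chain peaks had a median score of 93.20 and were the best in 70 of the 88 chains. The narrow peaks themselves had the same median score in both kinds, 13.08. Their interquartile range was 10.19 to 20.45 in chains with a wide peak and 9.92 to 22.31 in chains of narrow peaks only. A chain holding a wide peak need not have its best score there. In 18 of these 88 chains a narrow peak had the highest score, where narrow peaks were 86.7% of the peaks of all chains. In the 59 chains of narrow peaks only, the best peak was narrow by construction. With these, a narrow peak led 77 of the 147 chains. The 77 leading peaks, picked by their score, had a median width of 1027 bp, and the 72 of them with a fold a median of 3.06.

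**Figure D2:**
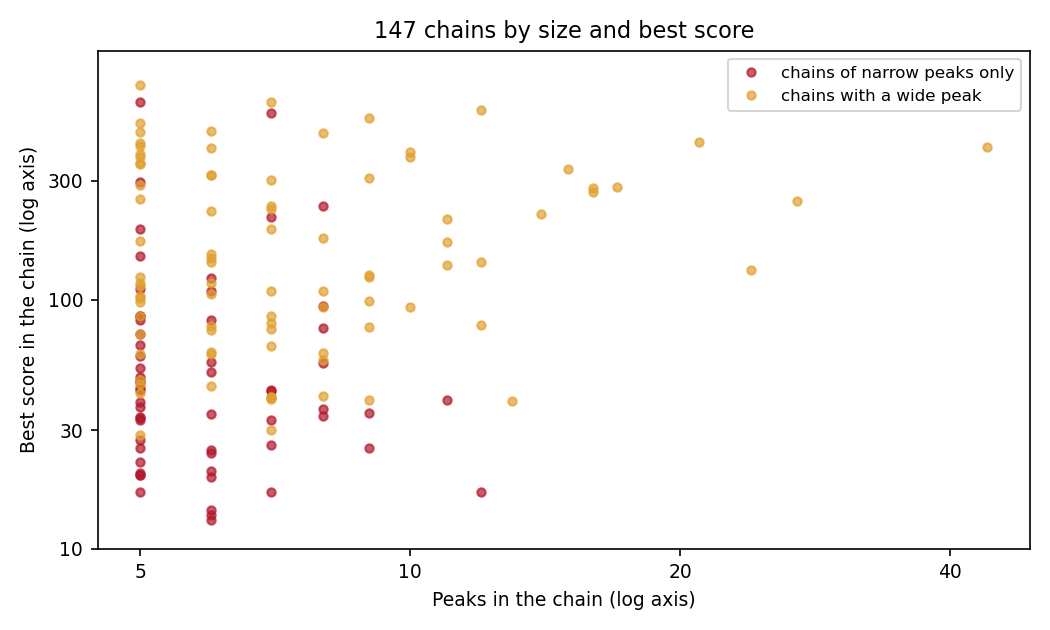
Best score in a chain (log axis) against the number of peaks in it (log axis), 1 point for each of the 147 chains. Chains of narrow peaks only reach from 13.08 to 624.23 and hold at most 12 peaks, and chains with a wide peak reach 44 peaks. Wide peaks score higher than narrow ones, so the split favours higher best scores in chains with a wide peak.

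The chain with the most narrow peaks lay on 2L at 14423511 to 14520903. It held 32 narrow and 12 wide peaks over 97.4 kb, 55.8% of it covered. Its narrow peaks had a lowest score of 6.91, a median of 11.74 and a highest score of 125.11, and supplied 37.4% of the covered bases. The first peak, at 14423511 to 14423779, was the weakest, and 4843 bp separated it from the next. The strongest narrow peak, at 14499617 to 14500984, reached 4.95-fold (95% interval 4.45 to 5.49). Its neighbour 81 bp further on, at 14501066 to 14501584, reached 1.80-fold. The next chain on the arm began after a gap of 6362 bp and ran from 14527266 to 14567069, with 13 narrow and 4 wide peaks. Its narrow peaks had a median score of 12.18 and a highest of 41.19.

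Chains on 3R followed in number of narrow peaks. That at 17234331 to 17297419 held 24 narrow and 3 wide peaks. The narrow scores had a lowest value of 7.57, a median of 14.01 and a highest of 101.54, and its strongest narrow peak lay at 17273155 to 17274496 with 4.46-fold. Beside that peak stood narrow ones of 3.09-fold and 2.80-fold, so a stretch of 3 stronger narrow peaks lay inside the chain, away from its best wide peak at 17244766. The stretch bordered another wide peak, 1405 bp further on at 17280240 to 17284848, with a score of 104.6. Beyond that wide peak, at 17291278 to 17292283, lay a further narrow peak of 3.11-fold. The chain at 21822669 to 21868563 held 21 narrow peaks that reached at most 2.52-fold. Their median score was 10.19 and the highest only 26.61, while its best wide peak had 132.13. In the chain at 929918 to 951761, 14 narrow peaks had a median score of 13.08. One of these, at 934738 to 936109, stood at 119.59, and each other narrow peak lay at 36.07 or below.

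On 3L the fullest chain ran from 14939130 to 14972835, with 19 narrow and 2 wide peaks. Its narrow scores ran from 7.38 over a median of 17.61 to 108.78. A series of narrow peaks between 14949289 and 14956594 had similar folds of 2.66, 2.68, 2.62, 2.13 and 2.70. The chain at 722400 to 755006 had 12 narrow peaks with a median score of 12.99 and only 30.1% of its length covered. That at 10835714 to 10855443 had 12 narrow peaks and 1 wide peak of 3460 bp. There the wide peak was weak, at 2.59-fold, and the narrow peak next to it, at 10842822 to 10843855, was the best of the chain with 2.93-fold (interval 2.54 to 3.35). These intervals overlap.

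The fullest chain on 2R lay at 20928862 to 20957457, with 12 narrow and 3 wide peaks. It was also the most densely covered of the chains with at least 8 peaks, at 73.5%. Its narrow scores had a lowest value of 7.14, a median of 15.93 and a highest of 116.85. The weakest one, at 20930613 to 20930857, lay 75 bp before the widest peak of the chain, which had a score of 335.04. On 2L, the chain at 3814065 to 3862177 had 12 narrow peaks with a median score of 14.64 and a highest of 40.71. A wide peak of 14739 bp lay in it, and narrow peaks supplied only 24.7% of the covered bases. The other densely covered chains lay on 3L, at 612713 to 629332 with 71.8% covered and at 9030697 to 9039096 with 64.0%. The first had 8 narrow and 2 wide peaks, and the second consisted of 8 narrow peaks.

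**Figure D3:**
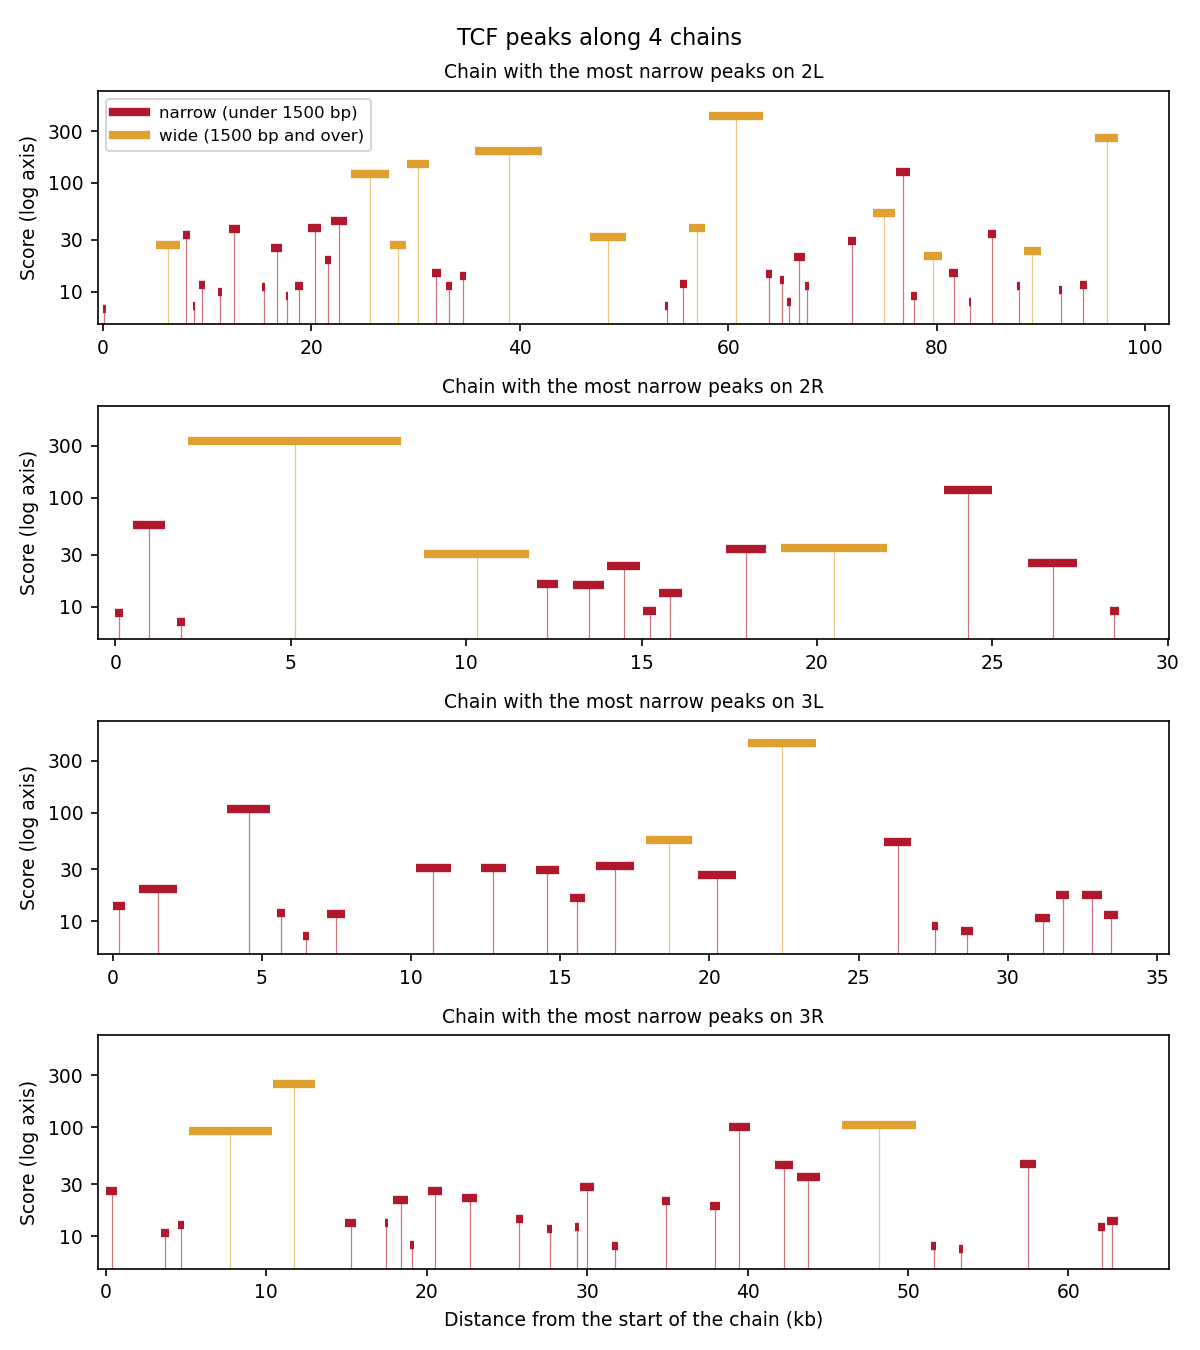
Peaks along the chain with the most narrow peaks on each arm. The horizontal axis gives the distance from the start of the chain in kb, horizontal strokes show each peak to scale at its score (log axis), and thin lines mark its midpoint. The narrow peaks on 2L have a median of 11.74, below each of the 12 wide peaks among them.

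Some chains held weak peaks only. In 9 of the 147 chains no score reached 20, and all 9 consisted of narrow peaks. They were singled out after their values were seen. The largest lay on 3R at 12048536 to 12068181, with 12 narrow peaks and none wide. Its scores ran from 7.38 over a median of 10.76 to 16.93. Its 10 peaks with a fold reached at most 2.16, and all their counting intervals overlapped. The lowest maximum, 13.08, was found on 2R at 15152466 to 15163749, where 6 peaks covered 16.4% of 11.3 kb.

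At the other end stood a few strong narrow peaks. The strongest lay on 3R at 9808767 to 9810028, with a width of 1262 bp and 12.5-fold (95% interval 11.7 to 13.3). It was the first peak of a chain of 5. Its 4 neighbours had scores of 8.86, 36.97, 13.02 and 11.02. The nearest, 302 bp away at 9810331 to 9810646, reached 1.78-fold (interval 1.49 to 2.12), and the ratio of 6.98 between these folds was the largest between neighbouring narrow peaks of a chain. The strongest peak thus stood far above the others of its chain.

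The second strongest lay on 3L at 18217650 to 18219096, at 11.7-fold (10.9 to 12.5), at position 5 in a chain of 7 narrow peaks. Its neighbours on both sides, 97 bp before it and 3350 bp after it, were at 1.83-fold and 1.94-fold. A narrow peak at the start of that chain, 18205187 to 18206161, reached 3.92-fold. The third, on 3L at 5968817 to 5970120, had 9.08-fold (8.39 to 9.80). It stood in a chain of 10 whose other narrow peaks lay between 1.78-fold and 2.58-fold. The fourth, on 3L at 1442104 to 1443554, had 7.93-fold (7.29 to 8.61) and the next, on 2R at 12728585 to 12729836, had 6.97-fold (6.37 to 7.61). In the chain of this last one, 2 further narrow peaks exceeded 3-fold, at 3.21 and 3.08.

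The remaining peaks of the 10 highest narrow ones had lower folds, on all 4 arms. They lay on 2L at 1455905 to 1457052 with 6.58-fold and at 2438488 to 2439632 with 5.83-fold, on 3L at 18412104 to 18413368 with 6.22-fold, on 2R at 11213154 to 11214385 with 5.42-fold, and on 3R at 20902571 to 20903727 with 5.27-fold. Each of the 10 was the best peak of its chain, and all were between 1145 and 1451 bp wide, near the upper limit of the width. The 5 weakest narrow chain peaks had scores between 6.02 and 6.46 and folds between 1.62 and 1.65. Both peaks at 6.02 lay on 2R, at 3913426 to 3913674 and at 17596770 to 17597004, and the other 3 lay on 2L, 3L and 3R.

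Neighbouring narrow peaks of a chain mostly had similar heights, but all narrow chain peaks had a small spread (interquartile range 1.84 to 2.32-fold). Pairs of peaks that are not neighbours were not compared. Of 636 neighbouring pairs with a fold for both peaks, the higher fold was a median of 1.16 times the lower (interquartile range 1.07 to 1.35). The counting intervals lay apart in 147 pairs (23.1%), and the ratio reached 2 in 34 pairs (5.35%). In the other pairs the counting intervals overlapped. Over whole chains the highest and lowest narrow folds were compared. By construction this ratio is at least that of any neighbouring pair in the chain, and it can only grow as peaks are added. The highest narrow fold of a chain was a median of 1.63 times the lowest, and at least 2 times in 41 of the 147 chains. In 95 chains, at least 2 narrow peaks had counting intervals that lay apart.

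Median heights were nearly level away from the best peak of a chain, while the share of stronger peaks was smaller close to it. The best peaks that were narrow had a median of 3.06-fold, which is high by construction, since they were picked by score and left out of the distance classes. Narrow peaks with their midpoint under 2 kb from that of the best peak, wide or narrow, had a median of 1.91-fold (122 peaks with a fold, interquartile range 1.78 to 2.09). Between 2 and 5 kb the median was 1.97-fold (266 peaks), between 5 and 10 kb 1.97-fold (265 peaks), between 10 and 20 kb 1.98-fold (124 peaks), and from 20 kb on 2.05-fold (57 peaks). At least 3-fold was reached by 2.46% of these peaks under 2 kb (3 of 122), 4.51% between 2 and 5 kb and 5.66% between 5 and 10 kb. It was reached by 8.87% between 10 and 20 kb and 8.77% from 20 kb on (5 of 57), against 19.7% over the 4 arms. The narrow peaks closest to the best peak were thus not the higher ones. Their widths moved with the heights, with medians of 349 bp under 2 kb and 533 bp from 20 kb on. The distance classes also draw on different chains. Only chains longer than 20 kb can supply the last class, and the upper quartile of chain length was 15.3 kb. The parts of width and of chain in this order were not tested.

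**Figure D4:**
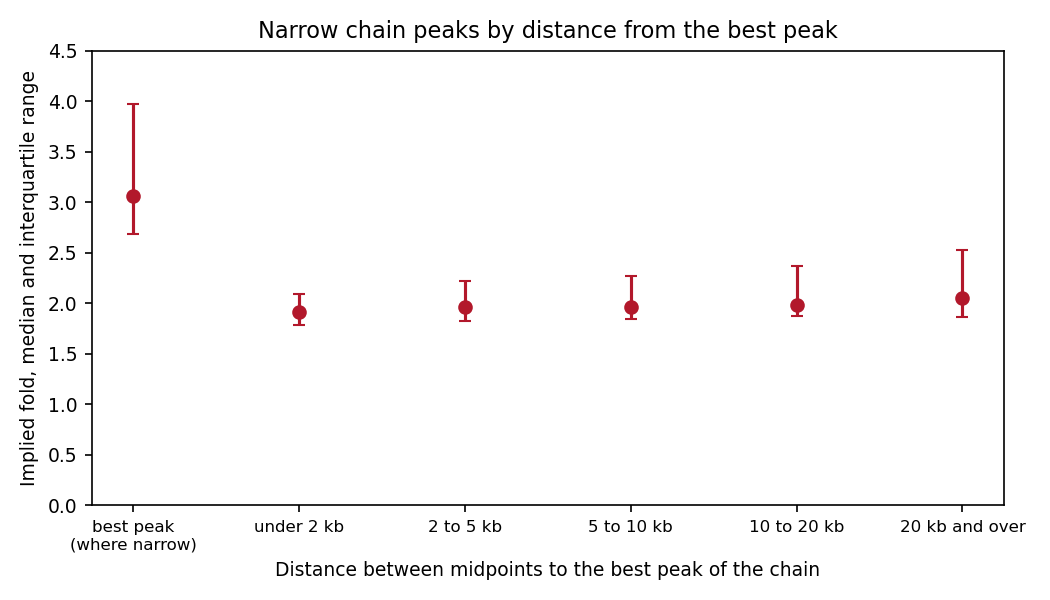
Implied fold of narrow chain peaks, as median and interquartile range over peaks, against the distance between their midpoint and that of the best peak of the chain. The left point shows the narrow peaks that are themselves the best, at 3.06, and all other points lie between 1.91 and 2.05. The best peaks were picked by score and left out of the other points, so this step is built in.

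Narrow peaks next to a wide peak had slightly lower medians still. The 212 narrow peaks with a wide neighbour in the chain had a median score of 12.47 and a highest of 125.11. The 747 without one had a median of 13.08 and a highest of 624.23. Under 300 bp the median was 8.86 with a wide neighbour and 9.65 without one, and between 800 and 1500 bp it was 27.43 with a wide neighbour and 34.27 without one. At the edges of chains the medians were close to those inside, while the share of stronger peaks was larger. The 267 narrow peaks at a chain end had a median score of 13.69, against 12.77 for the 692 inside a chain. At least 3-fold was reached by 40 of the 252 end peaks with a fold (15.9%), against 46 of the 654 inside (7.03%). Over the 4 arms the share was 19.7%. The share also differed with chain size, at 12.1% in chains of 5 to 6 peaks, 6.92% in those of 7 to 9 and 8.75% in those of 10 or more. End and inner peaks were not compared at like width or chain size.

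The gaps inside chains were short. Over 959 gaps between neighbouring peaks of a chain the median was 701 bp (interquartile range 239 to 1846.5 bp), against 875 bp (284 to 2391 bp) over the 1012 gaps in groups of 2 to 4. Under 200 bp lay 20.9% of the gaps in chains and 16.5% of those in groups of 2 to 4. No gap in either was under 47 bp. Gaps between 2 narrow peaks had a median of 693 bp and those between a narrow and a wide peak 727 bp. Since a chain needs 4 consecutive gaps under the limit, short gaps are favoured by the rule. The narrow peaks whose nearest gap was under 200 bp had a median score of 12.47, those with 200 bp to under 1000 bp had 13.69, and those with at least 1000 bp had 13.08, so the medians did not follow the gap in one direction.

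**Figure D5:**
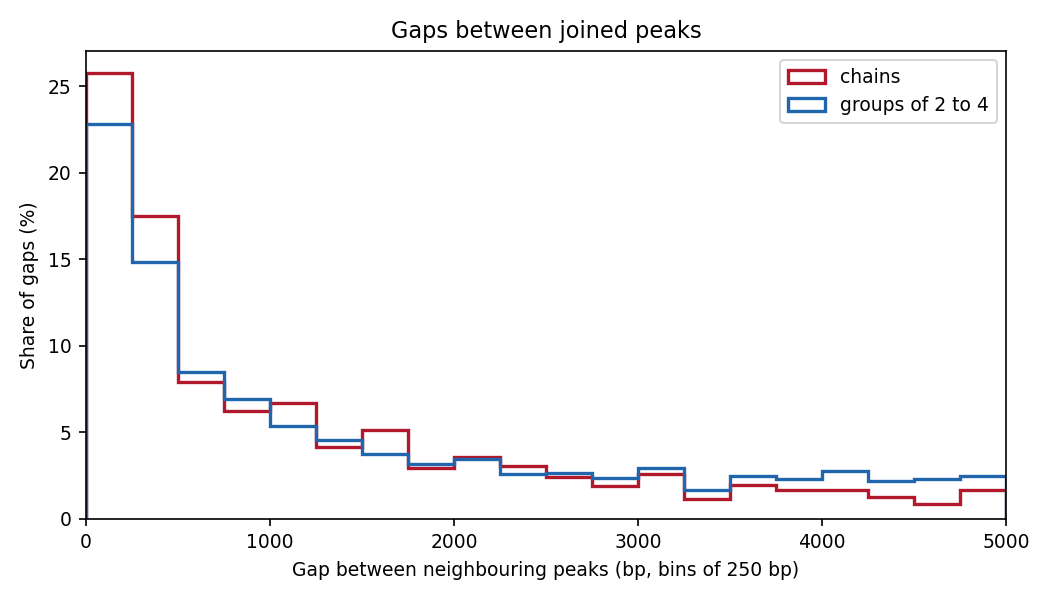
Share of gaps (%) against the gap between neighbouring peaks (bins of 250 bp), for the 959 gaps in chains and the 1012 gaps in groups of 2 to 4. Both are highest at the shortest gaps and fall off beyond, with medians of 701 and 875 bp.

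The limits cut through a continuous range of widths and gaps. The widest narrow chain peaks measured 1496, 1494 and 1482 bp, with 2.75-fold, 3.08-fold and 3.32-fold. The narrowest wide peaks of the chains measured 1510, 1514 and 1519 bp, with 2.54-fold, 2.51-fold and 2.44-fold. The widest gaps joined within a chain were 4977, 4977 and 4976 bp, and the smallest that bounded a chain were 5010, 5046 and 5075 bp. There were 96 groups of exactly 4 peaks, just short of a chain.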

How the data were processed

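ChIP and input DNA of whole embryos were sequenced by the submitters. The tools MACS2, BWA and CASAVA (versions 1.7.0.2 and 1.7.0.3) and the build BDGP5 are named, with no roles, per the submitters' processing notes. Per the file headers, the peaks come from MACS on FlyBase release 5. How replicates were pooled, which reads were kept and where the threshold lay is not given in the sources used here. The single deposited list gives a start, an end and the authors' score for each peak, and no value per library. Separate embryo collections for the replicates are not stated in the labels.

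Peaks were grouped by their gaps, and medians, interquartile ranges, shares and exact Poisson intervals were computed with pandas 2.3.3, SciPy 1.17.1 and NumPy 2.4.6 in Python 3.11.15, and drawn with matplotlib 3.10.9. The grouping and the search for the expected pileup were tested on simulated data. No test was made over peaks, which are not replicates. The named items follow a rule: the 10 chains with the most narrow peaks (ties by the higher best score), the fullest chain on each arm, the 10 highest and 5 lowest narrow peaks, the 3 most covered chains of at least 8 peaks, and the 3 nearest values on each side of the limits. The peaks and this rule were chosen with earlier results of these data known. Genes and motifs, planned only for a reference of release 5, were not analysed here.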

Additional observations from a re-analysis of the deposited data

How the results depend on the processing

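No paired analysis was possible because each peak has only 1 score for all libraries, which also prevents leaving out a replicate. All 6 results were recomputed under 9 alternatives, and the difference in score under 1 more. Leaving out the chain with the most peaks was chosen after seeing the data. Only the difference in score could change its direction. It did not, as the median score of the narrow chain peaks stayed below that of the single narrow peaks in each alternative. The number of narrow chain peaks was 540 with a gap limit of 2500 bp, 1532 with 10000 bp, 274 in chains of at least 10 peaks, 595 with peaks within 200 bp merged first and 110 among peaks of the higher-scoring 50%. The median score was 11.88 with a width limit of 1000 bp and 26.41 in that higher-scoring 50%. The median width was 497 bp in chains of at least 10 peaks, 390.5 bp with the width limit of 1000 bp, 494 bp after merging and 873 bp in the higher-scoring 50%. The median score minus that of single narrow peaks, -3.52 as reported, was -5.38 when averaged within 4 width classes and -5.66 in the higher-scoring 50%. The share with at least 3-fold was 11.7% with a gap limit of 10000 bp, 3.46% and 12.4% with width limits of 1000 and 2000 bp, and 18.1% in the higher-scoring 50%. The fall in score from the best to the median narrow peak of a chain, a median of 23.87 over the 146 chains with at least 3 narrow peaks, was 15.55 with a gap limit of 2500 bp, 29.58 with 10000 bp, 53.23 in chains of at least 10 peaks, 11.49 with a width limit of 1000 bp and 30.58 with 2000 bp. The subsets hold fewer peaks by construction, and a change of the width limit changes the widths and scores by construction. The higher-scoring 50% was picked by score, so its scores and folds are higher by construction, and widths rise with scores in this list. Library depth is unknown, so a weak or missing peak cannot be read as absent binding.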
